A study of Mus musculus with 48 samples.

Results

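The arrays described here compared the aorta of Lox knockout (KO) and wild-type (WT) mice at embryonic day 17.5 (E17.5). They were chosen by their sample titles and number 8 of the 48 arrays in the series. Ascending aorta (AA) and descending aorta (DA) were measured separately, with 2 KO and 2 WT arrays for each location, so that 4 arrays stood on each side. All 8 came from mice of the strain B6 albino, no treatment is given, and each array held RNA of like tissue pooled in groups of 8. The comparison asks what loss of lysyl oxidase changes in gene expression of the aortic wall shortly before birth, and whether the upper and lower aorta differ in it. The rest of the series holds the same Lox mice at postnatal day 1 (P1) and KO and WT aorta of 2 other models, Eln and Efemp2, on C57BL/6, at both stages. The labels give neither the deleted part of Lox nor whether the knockout reached every cell, and they do not say whether the AA and DA pools with one replicate number came from the same mice. The p-values below therefore rest on the spread between pools, 2 per group. Where 1 effect was fitted for AA and DA together, that spread also holds any difference between their effects. Fits of all 48 arrays take it from every group of the series.

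Lysyl oxidase, the product of Lox, is a secreted copper enzyme that oxidises lysine side chains of elastin and collagen, after which cross-links form between the chains. In the artery wall smooth muscle cells secrete elastin, fibulin-4 (Efemp2) and fibulin-5 help to bring it to microfibrils and to the enzyme, and cross-linking turns it into the elastic layers that carry the pulse. Mice without Lox are known to die around birth with dilated or ruptured arteries. Signal is given below as log2 values, as deposited, so that a difference of 1 stands for a doubling, and every difference is KO less WT unless said otherwise. Levels of different genes are not compared, since each probe set has its own brightness.

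Array medians lay between 3.71 and 3.82, and the median signal of 1405 probe sets of olfactory and vomeronasal receptors, taken as background, lay between 2.01 and 2.27. The smooth muscle marker Acta2 was measured at 10.86 to 11.57 and Myh11, smooth muscle myosin, at 9.03 to 9.73, and the endothelial markers Pecam1 (7.72 to 8.15) and Cdh5 (7.93 to 8.77) were present in every array. The heart muscle genes Myl7 (7.48 to 9.96) and Tnnt2 (8.06 to 10.73) were present in all 8 arrays as well, in DA as in AA. WT AA replicate 1 stood apart. Its median correlation with the other 7 arrays was 0.933, against 0.957 to 0.966 for the others, and its background of 2.27 was the highest. Counts of calls are given with and without it, as are list medians that it moves by more than 0.1. In bulk tissue, fewer cells of a type and less RNA per cell cannot be told apart.

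Lox itself was lower in every KO array, but the KO pools were not alike. Its signal was 9.74 and 9.84 in WT AA, 9.57 and 9.55 in WT DA, 7.99 and 6.56 in KO AA, and 7.93 and 6.26 in KO DA (replicates 1 and 2 in each pair). Every KO array lay below every WT array, and in both locations KO replicate 1 kept more signal than KO replicate 2, by 1.42 in AA and 1.67 in DA. The mean difference was -2.49 ± 0.36 (SE, n = 4 and 4), a 5.61-fold lower level. With this spread the adjusted p was 0.0614 in limma on the 8 arrays, just above the threshold of 0.05, and 5.32e-08 in a limma fit of all 48 arrays, which takes the spread from every group of the series. An exact permutation test over arrays within each location gave a two-sided p of 0.0556, the smallest that its 36 permutations allow. Where on Lox the probe set lies against the deleted part is not known, so the remaining signal does not measure remaining enzyme.

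Of 12046 genes tested, 4 rose in Lox KO aorta with location as a block and none fell (0.0332% of tested genes called). They were Col8a1, Thbs1, Igfbp2 and Ccn2, which code for a collagen, a matricellular protein, a binder of insulin-like growth factors and a second matricellular protein. At an unadjusted p under 0.05 limma gave 533 higher (4.42%) and 329 lower genes (2.73%), 7.16% of those tested together, and the 48-array fit gave 6 lower genes after adjustment.

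Col8a1, which codes for a chain of the short-chain collagen VIII of vessel walls, had the largest difference among these. It stood at 3.48 and 4.70 in WT AA, 6.06 and 6.26 in WT DA, 6.39 and 6.61 in KO AA, and 8.28 and 8.30 in KO DA. Every KO array lay above every WT array, and within each location the gap was wider than the spread of either pair, although DA was higher than AA in both genotypes. The difference was 2.27 ± 0.23 (SE, n = 4 and 4; adjusted p = 0.0219, limma), or 4.83-fold. The WT AA replicate 1 value of 3.48 lay below that array's median of 3.81.

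Thbs1, the gene of thrombospondin-1, a matricellular protein that binds cells and latent TGF-beta, stood at 5.93 and 6.05 in WT AA, 5.52 and 5.24 in WT DA, 7.90 and 6.96 in KO AA, and 7.07 and 7.20 in KO DA. The genotypes did not overlap, and KO AA replicate 1 was the highest array. The difference was 1.60 ± 0.20 (SE, n = 4 and 4; adjusted p = 0.0318, limma), or 3.03-fold. Igfbp2 stood at 5.87 and 5.51 in WT AA, 5.44 and 5.66 in WT DA, 6.71 and 6.96 in KO AA, and 6.74 and 6.71 in KO DA. The 4 KO arrays lay close together and above the WT arrays, with a difference of 1.16 ± 0.13 (adjusted p = 0.0295, limma). Ccn2, also called CTGF, a secreted matricellular protein and a common readout of the co-activators YAP and TAZ, stood at 8.03 and 7.93 in WT AA, 7.96 and 7.75 in WT DA, 9.11 and 8.84 in KO AA, and 9.02 and 8.91 in KO DA. It differed by 1.05 ± 0.12 (adjusted p = 0.0295, limma), and a second Ccn2 probe set differed by 0.72.

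**Figure D1:**
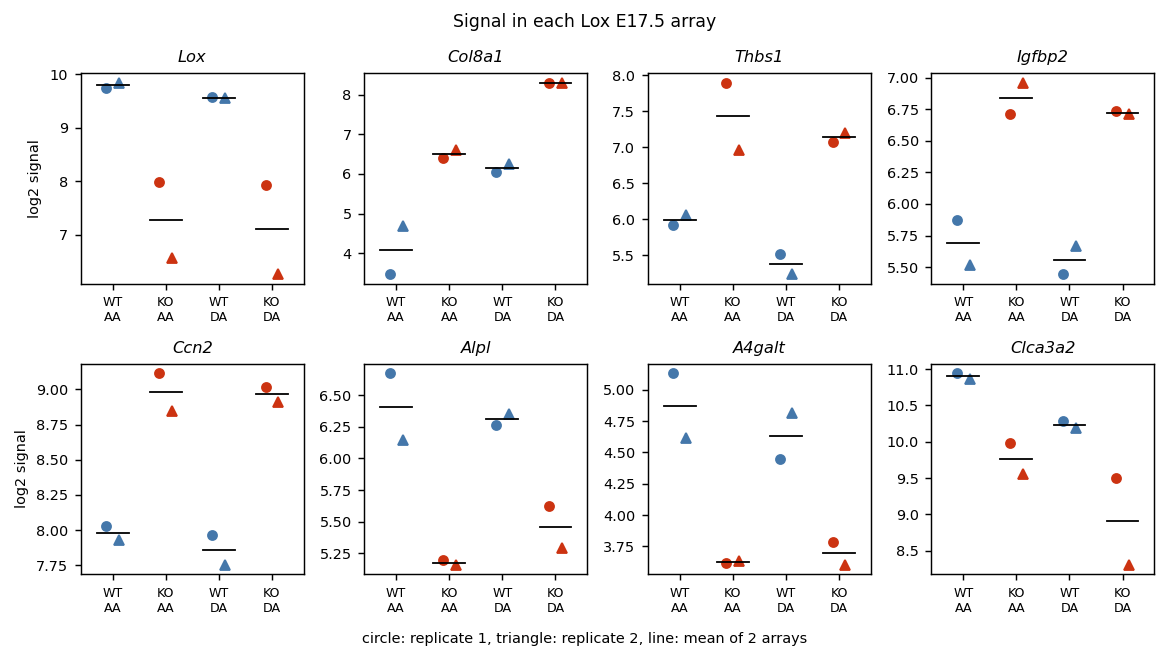
Log2 signal (y axis, a separate range in each panel that does not start at 0) of Lox, the 4 genes that rose and 3 genes that were lower in the fit of all 48 arrays, in each of the 8 arrays. Blue is WT, red is KO, circles are replicate 1, triangles replicate 2 and lines the mean of 2 arrays. In each panel both KO arrays of a location lie on one side of both WT arrays, and KO replicate 1 of Lox lies 1.42 (AA) and 1.67 (DA) above KO replicate 2.

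The count of 4 moved with single arrays. It was 2 without WT AA replicate 1, 17 without WT AA replicate 2, 0 without WT DA replicate 1, WT DA replicate 2, KO AA replicate 1 or KO DA replicate 2, 1 without KO AA replicate 2 and 3 without KO DA replicate 1. The size of the differences moved less. Over 24 alternatives Col8a1 differed by 1.96 to 2.49, Thbs1 by 1.40 to 1.82, Igfbp2 by 1.09 to 1.23 and Ccn2 by 0.89 to 1.15, while their adjusted p reached 0.252, 0.403, 0.437 and 0.574.

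Among the genes just outside the threshold were structural and signalling genes. Tnnc1, the troponin C of heart and slow muscle, differed by 1.13 ± 0.16, Gna14, a G-protein alpha subunit of the Gq family, by 1.11 ± 0.16, and Col11a1, a fibrillar collagen chain, by 0.81 ± 0.12 (adjusted p = 0.0614 each, limma). On the lower side A4galt, a glycosphingolipid galactosyltransferase, differed by -1.09 ± 0.16 (adjusted p = 0.0614) and Alpl, the tissue-nonspecific alkaline phosphatase that breaks down the mineralisation inhibitor pyrophosphate, by -1.04 ± 0.16 (adjusted p = 0.0727).

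With the spread taken from all 48 arrays, 19 genes passed, 13 higher (0.108% of tested genes) and 6 lower (0.0498%), 0.158% together. This includes the 4 above, and the genes named from it were chosen after their values were seen. In all 19 the KO and WT arrays did not overlap within either location, against 5.04% of tested genes for KO higher and 3.06% for KO lower, and in 17 no KO array overlapped any WT array in either location (2.67% of tested genes for higher and 1.49% for lower). In the 8-array fit each of the 19 had an unadjusted p under 0.05, and the 15 that missed the threshold there had adjusted p values of 0.0614 to 0.268. The 19 were called on the difference between these same 8 arrays. Their lack of overlap and their p in the 8-array fit therefore describe them and are no separate evidence for the calls. The count of 19 was 5 without WT AA replicate 1 (Alpl, Col8a1, Lox, Slc26a7 and Thbs1), 102 without WT AA replicate 2, 7 without WT DA replicate 1, 4 without WT DA replicate 2, 12 without KO AA replicate 1, 16 without KO AA replicate 2, 11 without KO DA replicate 1 and 7 without KO DA replicate 2. Of the 102, 17 were among the 19. Col8a1, Lox, Thbs1 and Alpl made up the 4 that passed without WT DA replicate 2.

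The 13 higher genes differed by 0.73 to 2.27. Several code for secreted factors. Wnt16, a Wnt ligand, differed by 0.81 ± 0.14 (SE of the 8-array fit here and below, adjusted p = 0.0106 in the 48-array fit) and Igfbp3, the second IGF-binding protein among them, by 0.97 ± 0.18 (adjusted p = 0.0099 in that fit). Igfbp3 stood at 7.0 and 7.50 in WT AA, 8.24 and 7.68 in WT DA, 8.30 and 8.12 in KO AA, and 8.69 and 9.18 in KO DA, so that the genotypes were apart within each location but overlapped across them. Hmox1, the haem-degrading enzyme haem oxygenase 1, differed by 1.52 ± 0.29 (adjusted p = 0.0106). Its values were 5.86 and 5.94 in WT AA, 6.15 and 6.16 in WT DA, 7.84 and 8.22 in KO AA, and 6.52 and 7.62 in KO DA. The WT pools lay close together, whereas the KO DA pools were far apart and KO DA replicate 1 was the nearest to WT.

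Among the 13 were Flt1 and Esm1, which are best known from endothelium. Flt1, a receptor for VEGF, differed by 0.78 ± 0.16 (adjusted p = 0.0143 in the 48-array fit), and Esm1, the endothelial proteoglycan endocan, by 1.19 ± 0.26 (adjusted p = 0.0173). Esm1 stood at 3.23 and 3.35 in WT AA, 3.93 and 3.67 in WT DA, 5.48 and 4.22 in KO AA, and 4.69 and 4.53 in KO DA, highest in KO AA replicate 1. Its WT means, 3.29 in AA and 3.80 in DA, lay below the signal filter of 4.14. Esm1 was thus tested only because its KO means passed that filter, and its place among the 13 is read with that limit. The list of 15 endothelial markers did not move with Flt1 and Esm1. Besides Flt1 none passed in either fit, 11 of 15 were negative, the list median was -0.13, and the mean level of the 15 genes was 5.92 to 6.57 in the WT and 5.99 to 6.55 in the KO arrays. Ier3, an immediate early gene, Ctss, the lysosomal protease cathepsin S, Gna14 and Fry complete the higher genes. A second Fry probe set, with a mean signal of 2.03 in the range of the background, differed by 0.0036.

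The 6 lower genes were Lox, Clca3a2, Pi15, A4galt, Alpl and Slc26a7. Clca3a2, a regulator of calcium-activated chloride channels, stood at 10.94 and 10.87 in WT AA, 10.28 and 10.19 in WT DA, 9.98 and 9.55 in KO AA, and 9.50 and 8.31 in KO DA, with a difference of -1.24 ± 0.23 (adjusted p = 0.00731 in the 48-array fit). It was lower in DA than in AA in each genotype, and KO DA replicate 2 was the lowest array. Pi15, a secreted peptidase inhibitor, differed by -1.16 ± 0.26 (adjusted p = 0.0270) and Slc26a7, an anion exchanger, by -1.01 ± 0.22 (adjusted p = 0.0326). A4galt stood at 5.13 and 4.62 in WT AA and 4.45 and 4.81 in WT DA, against 3.61 and 3.64 in KO AA and 3.78 and 3.60 in KO DA. Its 4 KO values lay below every WT value and close to the array medians. A4galt was tested through its WT means alone, since its KO means of 3.62 and 3.69 lay below the signal filter of 4.14. For Alpl the difference rests on 1 of 2 probe sets, since the second, with a mean signal of 4.08, differed by -0.17.

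The tested genes of the fibre that Lox cross-links gave no call. Fbn1 (fibrillin-1) and Efemp2 (fibulin-4) had no probe set with a single gene symbol and were not tested. Of 18 elastic fibre genes tested 0 passed in limma on the 8 arrays or in the 48-array fit, and 1 of 18 was higher without overlap, a share near the 5.04% of all tested genes. The list median was 0.10, beside 0.03 for all tested genes. Eln stood at 10.59 and 9.96 in WT AA, 10.25 and 10.12 in WT DA, 10.49 and 10.75 in KO AA, and 10.45 and 10.33 in KO DA, and its groups overlapped in AA (difference 0.27 ± 0.16, adjusted p = 0.755). Fbn2, fibrillin-2 of the fetal microfibril, was the 1 without overlap (0.50 ± 0.17, adjusted p = 0.576), and Efemp1, fibulin-3, had the lowest value (-0.58 ± 0.20, adjusted p = 0.596). Both had an unadjusted p under 0.05. The other lysyl oxidases showed no change past the threshold. Loxl1, the family member most tied to elastic fibres, differed by 0.09 ± 0.14, Loxl3 by 0.27 ± 0.12 and Loxl4 by -0.14 ± 0.15, and Loxl2 was not analysed here. Loxl3 stood at 6.20 and 6.30 in WT AA against 6.53 and 6.62 in KO AA, and at 6.54 and 6.71 in WT DA against 6.76 and 6.93 in KO DA, a small step without overlap in each location that did not pass (adjusted p = 0.687).

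Of 16 collagen genes tested 1, Col8a1, rose, at a list median of 0.07. The main fibrillar chains differed by 0.16 ± 0.15 (Col1a1), -0.02 ± 0.12 (Col1a2) and -0.01 ± 0.15 (Col3a1). Of the 16, 3 were higher without overlap within each location, beside 5.04% of all tested genes, and 1 was lower, beside 3.06%. The higher ones were Col8a1, Col11a1 (0.81) and Col12a1, a collagen on the surface of fibrils (0.66), of which only Col8a1 passed. Among 14 collagen-modifying genes 0 passed and the median was 0.10. Of 18 contractile genes of smooth muscle 0 passed, 15 were positive, beside 57.0% of all tested genes, and the median was 0.18. Smtn, smoothelin, the highest of them at 0.38, stood at 6.98 to 7.17 in the WT and 7.37 to 7.65 in the KO arrays.

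The matricellular list, secreted proteins that act on cells rather than build the matrix, held 2 of the 4 genes that rose, Thbs1 and Ccn2, among 14 tested. A further 4 of the 14 were higher without overlap in each location (Ccn1, Ccn5, Tnc and Sparc), which makes 6 of 14 beside 5.04% of all tested genes. All gene and marker lists were chosen with earlier results of these data known. Such shares, here and below, therefore describe the members and test no list. Ccn1 (CYR61) stood at 7.10 and 6.69 in WT AA, 6.72 and 6.81 in WT DA, 8.21 and 7.54 in KO AA, and 7.61 and 7.62 in KO DA. Every KO value was above every WT value, at a difference of 0.91 ± 0.17 (adjusted p = 0.200, limma). Ccn5, also a CCN protein, differed by 0.76 ± 0.18 and tenascin-C (Tnc) by 0.26 ± 0.12. The list median was 0.17. Of 16 integrin genes 0 passed, 6 were higher without overlap, beside 5.04% of all tested genes, and the median was 0.25. Itgbl1, a secreted protein with integrin-like repeats, had the largest value of that list at 1.09 ± 0.16 (adjusted p = 0.0685), and Itga11, a collagen receptor chain, differed by 0.71 ± 0.19.

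Ccn1, Ccn2 and Ankrd1 also belong to the list of YAP targets. YAP and TAZ are co-activators that enter the nucleus when cells are stretched or lie on stiff matrix and bind DNA through TEAD factors. Of 17 targets tested 1, Ccn2, rose in the 8-array fit and 2, Ccn2 and Igfbp3, in the 48-array fit. Of the 17, 16 were positive, where 57.0% of all tested genes were, 6 were higher without overlap, beside 5.04% of all, and the median was 0.20. Ankrd1, a nuclear ankyrin protein induced by stretch in muscle, stood at 3.95 and 5.05 in WT AA, 5.60 and 4.53 in WT DA, 6.45 and 6.43 in KO AA, and 6.20 and 6.62 in KO DA. Its WT pools spread more widely than its KO pools, the groups did not overlap, and the difference of 1.64 ± 0.29 had an adjusted p of 0.181. Crim1 (0.44) and Lats2 (0.48), a kinase that restrains YAP, were higher without overlap and did not pass. The matricellular, YAP target and IGF lists share members and are not separate evidence of one another.

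The proximal promoters of the genes that rose and of the YAP targets Ankrd1 and Ccn1 were read for the short letters that TEAD and AP-1 factors are known to bind. Of the 4 genes that rose, 2 (Col8a1 and Igfbp2) are in the RefSeq promoter table used, and with Ankrd1 and Ccn1, chosen after their values were seen, 4 of 6. The sequences are the 250 bases before the start site in the mouse build GRCm38.p6, 5′ to 3′ on the gene's strand, and capitals mark TEAD letters (CATTCC on either strand) or AP-1 letters (TGANTCA). For Igfbp2 the second of 2 listed start sites is shown.
Ankrd1 chr19:36119845-36120094 (minus strand): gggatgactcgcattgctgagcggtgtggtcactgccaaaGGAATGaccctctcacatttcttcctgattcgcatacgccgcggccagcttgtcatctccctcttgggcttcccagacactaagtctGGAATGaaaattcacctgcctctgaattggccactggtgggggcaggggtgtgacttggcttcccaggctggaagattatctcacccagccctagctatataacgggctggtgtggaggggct
Ccn1 chr3:145649986-145650235 (minus strand): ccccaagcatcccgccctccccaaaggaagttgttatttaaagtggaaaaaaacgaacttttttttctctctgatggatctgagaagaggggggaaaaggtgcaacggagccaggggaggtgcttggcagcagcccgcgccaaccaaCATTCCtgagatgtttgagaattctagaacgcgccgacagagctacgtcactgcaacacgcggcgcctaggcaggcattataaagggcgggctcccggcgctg
Igfbp2 chr1:72825137-72825386 (plus strand): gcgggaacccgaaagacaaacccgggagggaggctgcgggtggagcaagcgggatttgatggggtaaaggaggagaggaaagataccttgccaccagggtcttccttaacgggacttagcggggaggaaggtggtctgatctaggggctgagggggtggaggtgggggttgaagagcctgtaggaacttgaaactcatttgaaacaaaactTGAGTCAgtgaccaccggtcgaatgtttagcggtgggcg
Col8a1 chr16:57754738-57754987 (minus strand): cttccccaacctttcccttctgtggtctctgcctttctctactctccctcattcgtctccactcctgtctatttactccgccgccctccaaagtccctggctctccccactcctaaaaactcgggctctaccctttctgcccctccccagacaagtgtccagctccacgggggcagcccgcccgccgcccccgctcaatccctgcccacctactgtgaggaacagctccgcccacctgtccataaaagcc
TEAD letters stood at -210 and -123 from the start of Ankrd1, both on the opposite strand as GGAATG, and at -103 of Ccn1, and 12.6% of 32851 promoters of this length hold them. AP-1 letters stood at -39 of the second Igfbp2 start, and 6.75% of promoters hold them. The window of the first Igfbp2 start held neither TEAD nor AP-1 letters. The Col8a1 window held neither. A match is a description of letters and shows no binding.

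Inflammation and acute phase genes had the highest list median, 0.85, with 9 of 10 tested genes positive, beside 57.0% of all, but 0 passed in limma on the 8 arrays. In the 48-array fit 1, Hmox1, passed. The values were uneven across arrays. Serpina3n, an acute phase serine protease inhibitor, stood at 3.0 and 4.70 in WT AA, 4.36 and 4.39 in WT DA, 6.47 and 5.48 in KO AA, and 5.95 and 5.78 in KO DA, without overlap (1.81 ± 0.34, adjusted p = 0.215). Ccl2, a chemokine that draws monocytes, stood at 5.38 and 5.80 in WT AA, 4.90 and 4.58 in WT DA, 7.05 and 5.87 in KO AA, and 5.98 and 6.60 in KO DA (1.21 ± 0.27). KO AA replicate 2 lay just above its nearest WT AA pool. Ptgs2, the inducible prostaglandin synthase, differed by 1.28 ± 0.33 and Osmr, the oncostatin M receptor, by 0.61 ± 0.14, both without overlap within each location, while Cxcl12 was lower without such overlap (-0.28 ± 0.13) and Icam1 and Vcam1 differed by 0.01.

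Most macrophage markers were on the higher side as well. Of 14 tested 13 were positive (57.0% of all tested genes were), 6 were higher without overlap (5.04% of all) and the median was 0.34, with 1, Ctss, past the threshold in the 48-array fit and 0 in the 8-array fit. The mean level of the 14 genes was 5.20 to 5.85 in the WT and 5.74 to 6.30 in the KO arrays. Itgam, an integrin chain of myeloid cells, stood at 3.92 and 3.90 in WT AA, 4.07 and 4.13 in WT DA, 5.50 and 4.81 in KO AA, and 4.22 and 4.95 in KO DA (0.87 ± 0.23). Its WT values all lay below the signal filter of 4.14. Itgam thus entered the 14 tested, the 13 positive and the 6 without overlap only through its KO arrays. The complement gene C1qa differed by -0.26. Adgre1, the defining F4/80 antigen, stood at 4.28 to 5.21 in the WT and 4.65 to 5.58 in the KO arrays, with each KO pool above the WT pools of its own location. Of 11 lymphocyte and thymocyte markers 1, Ptcra, was bright enough to be tested (-0.33). The part of macrophages in the differences of Ctss, Hmox1 and Ccl2 was not tested.

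Heart muscle markers were also uneven between genotypes. Of 12 tested 9 were positive, beside 57.0% of all tested genes, and 4 were higher without overlap, beside 5.04%, with 0 past the threshold in either fit. Their median was 0.46, from 0.80 in AA and 0.10 in DA, and their mean level was 6.21 to 6.75 in the WT and 6.77 to 7.17 in the KO arrays. Without WT AA replicate 1 their median was 0.36. Myl7, atrial myosin light chain, stood at 7.48 and 8.54 in WT AA against 9.96 and 9.04 in KO AA, and at 9.69 and 9.55 in WT DA against 9.66 and 9.79 in KO DA, a difference of 1.49 in AA and 0.11 in DA. The part of heart tissue in the AA differences, that of Tnnc1 and of Ankrd1 among them, was not tested. Immediate early genes, which tissue handling can induce, stood highest in 1 array. The mean level of 16 such genes was 6.40 in KO AA replicate 1 and 5.33 to 5.70 in the other 7, and in that array Egr1 was 6.34 (4.19 to 5.03 elsewhere). Of the 13 higher genes 4, Thbs1, Ccn2, Ier3 and Esm1, were also highest in KO AA replicate 1. So were Ccn1, Ccl2, Serpina3n and Itgam. Fry, Hmox1, Igfbp2 and Wnt16 were highest in KO AA replicate 2. Col8a1, Ctss, Flt1 and Igfbp3 were highest in KO DA replicate 2, and Gna14 in KO DA replicate 1. The 13 were chosen as higher in KO, so the 9.53% of all tested genes highest in KO AA replicate 1 is no measure for them. Thbs1 and Ccn2 are among the 4 genes that rose, and the part of tissue handling in their differences was not tested. Of the 16 immediate early genes, 0 passed in the 8-array fit and 1, Ier3, in the 48-array fit.

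**Figure D2:**
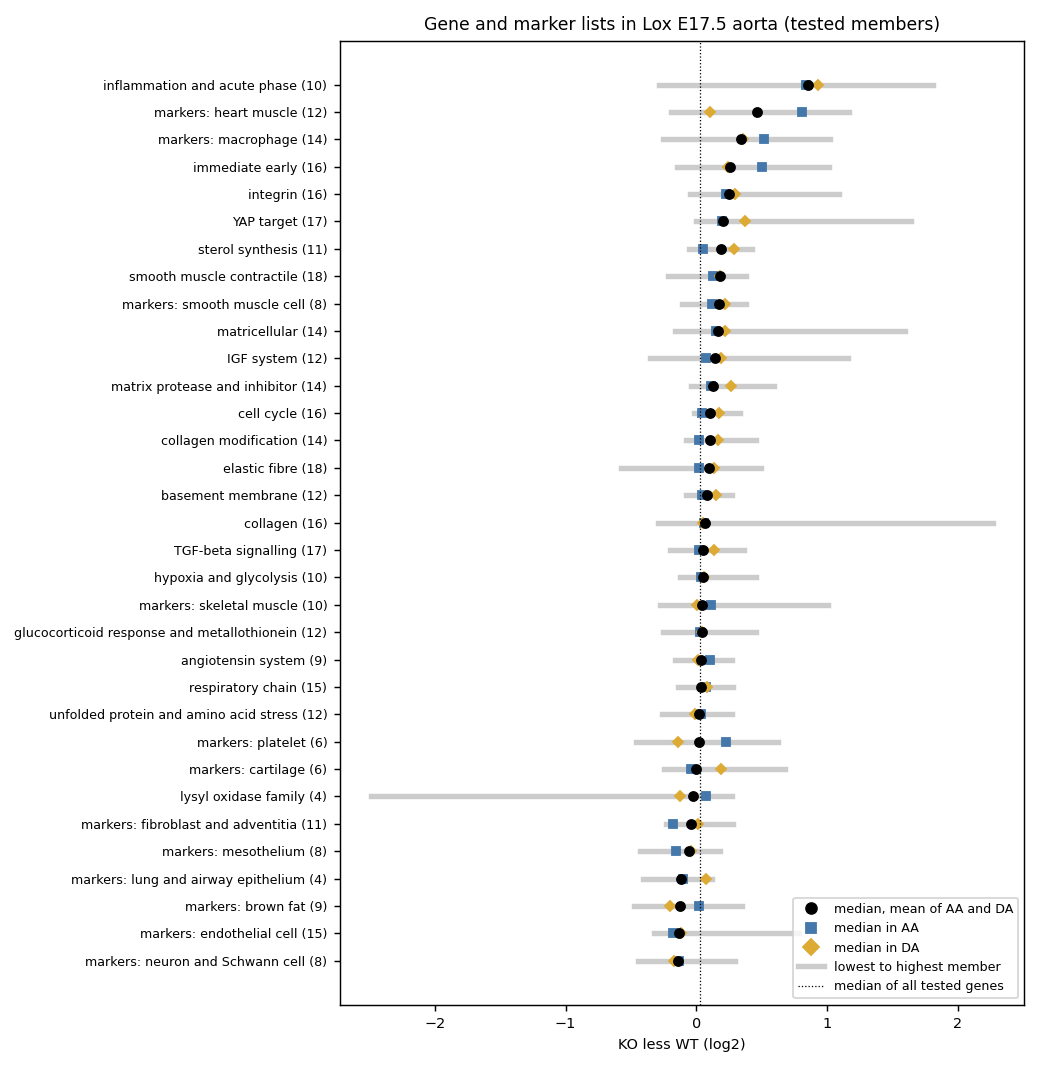
KO less WT (x axis, log2) for each gene or marker list with at least 4 tested members, whose number stands in brackets. Black circles are the list median of the mean of AA and DA, blue squares the median in AA, yellow diamonds the median in DA, grey bars run from the lowest to the highest member, and the dotted line is the median of all tested genes, 0.03. Inflammation and acute phase (0.85), heart muscle (0.46) and macrophage (0.34) lists lie farthest right, and the heart muscle medians differ between AA (0.80) and DA (0.10).

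The other lists had medians between -0.14 and 0.24, beside 0.03 for all tested genes. Of 17 TGF-beta signalling genes 0 passed in either fit and the median was 0.05, with the receptor gene Tgfbr1 at 0.27 and the feedback gene Smad7 at 0.30. The IGF list of 12 held Igfbp2 and Igfbp3 with a median of 0.14, or 0.04 without WT AA replicate 1. Igf1r, the receptor, was higher without overlap (0.33 ± 0.11, adjusted p = 0.601), and the ligands Igf1 and Igf2 overlapped between the genotypes, at -0.20 and 0.22. Medians were 0.04 for the angiotensin system (9 genes), 0.05 for hypoxia and glycolysis (10), 0.02 for unfolded protein and amino acid stress (12), 0.03 for the respiratory chain (15), 0.11 for the cell cycle (16) and 0.19 for sterol synthesis (11). In these 6 lists 0 genes passed in the 8-array or the 48-array fit. Nor did any pass among 12 basement membrane genes (median 0.08), 14 matrix proteases and their inhibitors (0.13) or 12 glucocorticoid response and metallothionein genes (0.04). The remaining marker lists, of cells of the wall and of cells that could adhere to a dissected aorta, gave no call either. Their medians were -0.04 for fibroblast and adventitia (11 genes), 0.17 for smooth muscle (8), 0.24 for erythroid (2 genes; 0.10 without WT AA replicate 1), 0.02 for platelet (6), 0.05 for skeletal muscle (10; 0.25 without that array), -0.13 for brown fat (9; -0.29 without it), -0.14 for neuron and Schwann cell (8), -0.0048 for cartilage (6), -0.12 for lung and airway epithelium (4) and -0.06 for mesothelium (8).

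The effect in AA and the effect in DA were then compared. In the fit of 4 group means, with 2 arrays against 2, limma called 0 genes in AA, 0 in DA and 0 in the difference of the effects, where 778 (6.46%), 618 (5.13%) and 540 genes (4.48%) had an unadjusted p under 0.05. The 48-array fit called 4 in AA (Lox, Col8a1, Alpl and Hmox1, 0.0332% of tested genes), 3 in DA (Lox, Col8a1 and Thbs1, 0.0249%) and 0 in the difference. With the 8 arrays alone, the count in AA was 178 without WT AA replicate 2, which leaves the array that stood apart as the only WT AA array, 1 without WT AA replicate 1 or KO AA replicate 2, and 0 without each of the other 5. The count in DA was 1 without WT AA replicate 1, WT AA replicate 2 or WT DA replicate 2, and 0 without each of the others. That of the difference was 3 without WT AA replicate 1, 2 without WT AA replicate 2, 1 without WT DA replicate 2 or KO AA replicate 2, and 0 without each of the others.

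Across all tested genes the effects in AA and DA were loosely related. Their correlation across genes was 0.159, a description, since the genes are not independent, and 54.9% of genes had the same sign in both. AA differences spread somewhat wider than DA differences, with an SD over genes of 0.31 against 0.28. The 19 genes, which were chosen for their mean over both locations, had the same sign in both. Col8a1 differed by 2.41 in AA (1.80 without WT AA replicate 1) and 2.13 in DA, Igfbp2 by 1.14 and 1.17, Ccn2 by 1.00 and 1.10, Thbs1 by 1.44 and 1.76, and Lox by -2.51 and -2.46. These pairs lie within their error of each other, and the intervals of the DA less AA difference are wide. For Col8a1 it was -0.28 (95% interval -1.37 to 0.81), for Igfbp2 0.03 (-0.61 to 0.66) and for Thbs1 0.32 (-0.60 to 1.24). For 18 of the 19 the interval held 0. Hmox1 was the exception, at 2.13 in AA and 0.91 in DA (difference -1.22, 95% interval -2.25 to -0.19, unadjusted p = 0.0252 and adjusted p = 0.997 in limma over all genes), so that its location difference did not pass.

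**Figure D3:**
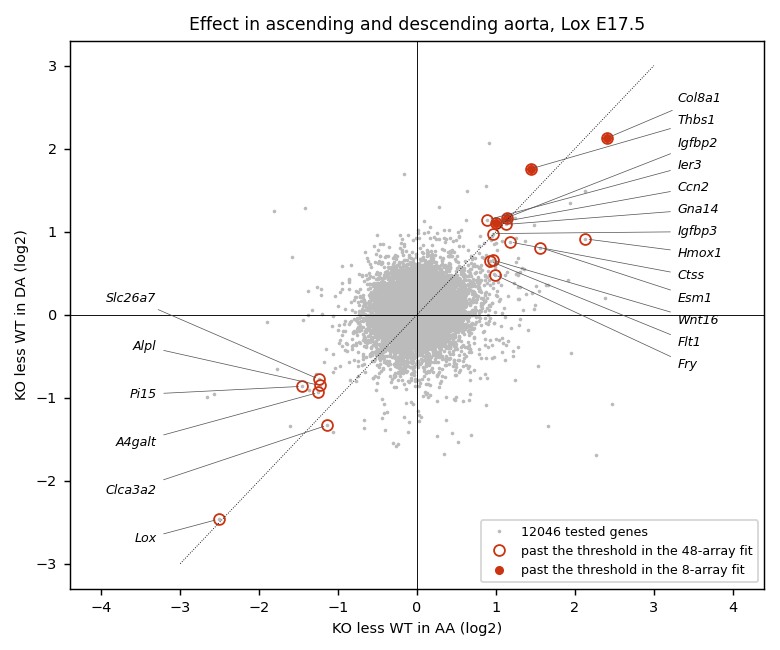
KO less WT in DA (y axis, log2) against KO less WT in AA (x axis, log2) for the 12046 tested genes, with the dotted line at equal effects. Open red circles are the 19 genes past the threshold in the 48-array fit and filled ones the 4 past it in the 8-array fit. Col8a1 (2.41, 2.13) and Lox (-2.51, -2.46) lie near the line at its ends, Hmox1 (2.13, 0.91) lies below it, and the cloud of all genes shows little slope (correlation 0.159).

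The genes with the smallest p for a location difference, in each direction, did not pass either. Csta3, a gene of the stefin family of protease inhibitors, stood at 1.59 and 1.78 in WT AA against 4.98 and 2.92 in KO AA, and at 5.01 and 5.08 in WT DA against 3.43 and 3.27 in KO DA. KO was thus above WT in AA and below it in DA, with KO AA pools far apart (-3.96 ± 0.74, unadjusted p = 4.82e-04, adjusted p = 0.997, limma). Without KO AA replicate 2 the location difference was -4.99. The WT AA values of Csta3 lay below the background of those arrays (2.27 and 2.03), and only its WT DA mean of 5.04 reached the signal filter of 4.14. The core histone variant gene Macroh2a3 (-1.19 ± 0.25) and Gsdmcl2, a gasdermin gene (-1.48 ± 0.33), also had KO above WT in AA and below in DA. In the other direction Epdr1, an ependymin-related gene, stood at 6.54 and 6.48 in WT AA against 5.93 and 5.78 in KO AA, and at 5.37 and 5.03 in WT DA against 5.82 and 6.10 in KO DA. The KO pools lay below WT in AA and above WT in DA, and the KO pools of both locations lay between the WT pools of AA and DA (1.41 ± 0.27, unadjusted p = 6.66e-04, adjusted p = 0.997, limma). Rab28, a small GTPase, and Qpct, glutaminyl cyclase, were likewise lower in KO AA and higher in KO DA (1.44 ± 0.29 and 1.18 ± 0.26). In AA alone Casq2, the calsequestrin of heart muscle, stood at 4.24 and 4.07 in WT against 5.42 and 5.44 in KO (1.28 ± 0.17, adjusted p = 0.318), and in DA at 5.00 and 5.18 against 5.42 and 5.44. Gabrb2, a GABA receptor subunit, was lower in KO AA (-1.18 ± 0.19, adjusted p = 0.337), and in DA it stood at 4.05 in both WT arrays against 3.60 and 3.35 in KO (-0.58), so that every KO array lay below every WT array. In DA alone Zfp992, a zinc finger gene, stood at 7.41 and 7.78 in WT against 6.21 and 5.81 in KO (-1.59 ± 0.31, adjusted p = 0.788), while in AA the genotypes overlapped.

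Since the KO replicates kept different amounts of Lox signal, the mean of the AA and DA arrays of each KO replicate was set against the mean of the 4 WT arrays. With 1 pool of each location per replicate this has no test. The arrays were joined by their replicate number, and whether they came from the same mice is not known. For Lox the distances were -1.72 in KO replicate 1 and -3.26 in KO replicate 2. The other 5 lower genes were farther from WT in replicate 2 as well, beside 47.5% of all tested genes, with Clca3a2 at -1.64 against -0.83, Pi15 at -1.63 against -0.70, Slc26a7 at -1.24 against -0.78, A4galt at -1.13 against -1.06, and Alpl at -1.14 against -0.95. Among the 15 higher genes compared, which add Tnnc1 and Col11a1 to the 13, replicate 2 was farther in 7. Col8a1 was at 2.21 in replicate 1 and 2.33 in replicate 2 and Igfbp2 at 1.10 and 1.21. Esm1 (1.54 against 0.83), Ier3 (1.32 against 0.71) and Thbs1 (1.80 against 1.40) were farther in replicate 1, and Hmox1 (1.15 against 1.89) in replicate 2. Over these 20 genes without Lox, replicate 2 was farther in 12 and replicate 1 in 8. They were chosen for their difference in these same arrays, and nothing is read from that count.

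**Figure D4:**
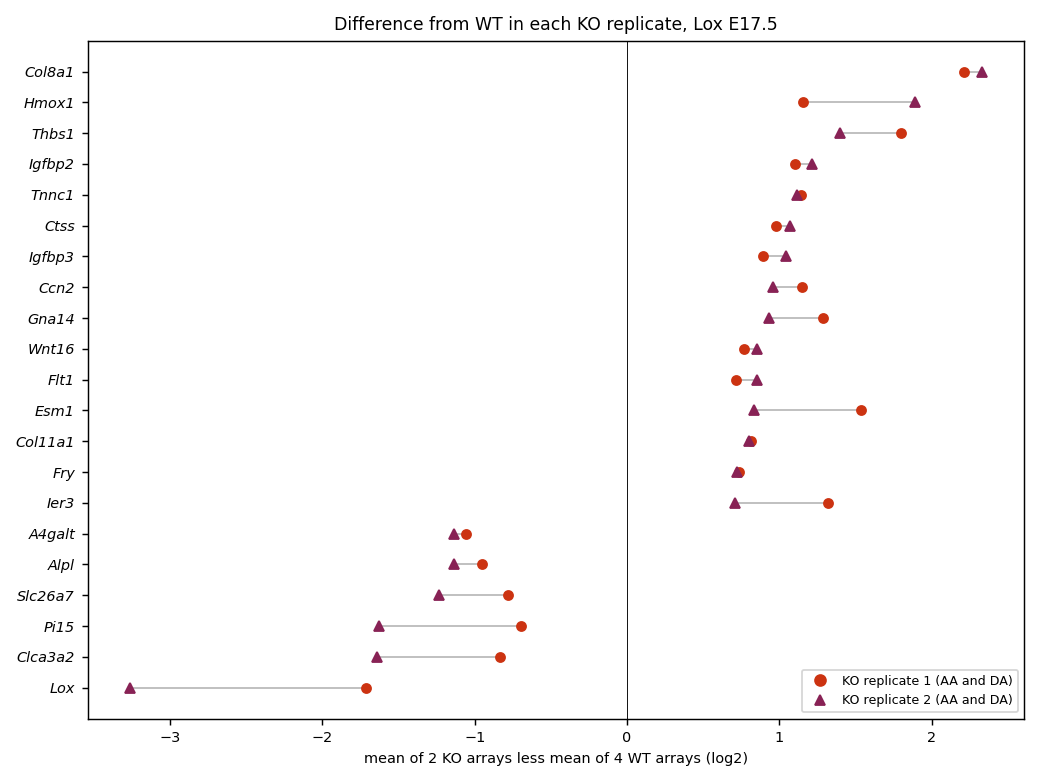
Mean of the AA and DA arrays of KO replicate 1 (red circles) and KO replicate 2 (purple triangles), each less the mean of the 4 WT arrays (x axis, log2), for 21 genes. Lox (-1.72 against -3.26), Clca3a2 and Pi15 are farther from 0 in replicate 2, Esm1 and Ier3 in replicate 1, and Col8a1, Tnnc1 and Fry nearly coincide.

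The effect was compared with the same knockout at P1 and with the Eln and Efemp2 knockouts at E17.5, none of which share arrays with it. Each experiment may have been normalized on its own, so only differences between KO and WT are set side by side, from the 48-array fit. That fit called 429 genes in Lox P1 (3.56% of tested genes), 35 in Eln E17.5 (0.291%) and 108 in Efemp2 E17.5 (0.897%), against the 19 in Lox E17.5. Of the 19, 12 also passed in Lox P1, 8 in Eln E17.5 and 11 in Efemp2 E17.5. The 4 that passed in every one were Col8a1, Igfbp2, Clca3a2 and Pi15. In Lox P1 the median of all tested genes was -0.17, and values from P1 are given less that median.

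Col8a1 differed by 2.27 ± 0.25 in Lox E17.5, 2.99 in Lox P1, 2.52 ± 0.25 in Eln E17.5 and 2.45 ± 0.25 in Efemp2 E17.5, and for none of the 3 did the difference from Lox E17.5 pass (adjusted p = 0.546, 0.999 and 0.973, limma). Igfbp2 differed by 1.16 ± 0.24, 1.98, 1.57 ± 0.24 and 2.24 ± 0.24 in the same order. Thbs1 differed by 1.60 ± 0.24 in Lox E17.5, 1.41 in Lox P1 and 1.58 ± 0.24 in Efemp2 E17.5, and by 0.40 ± 0.24 in Eln E17.5, where it did not pass. The difference of Thbs1 between Lox and Eln was 1.19 ± 0.33 (unadjusted p = 0.00112, adjusted p = 0.999), so it was not shown to differ. Hmox1 was higher in Lox E17.5 (1.52 ± 0.29) and Efemp2 E17.5 (2.46 ± 0.29), and stood at 0.15 in Lox P1 and 0.39 ± 0.29 in Eln E17.5. Igfbp3 was at 0.97 ± 0.18 in Lox E17.5, 1.05 ± 0.18 in Efemp2 E17.5, 0.58 ± 0.18 in Eln E17.5 and 0.03 in Lox P1. The Hmox1 and Igfbp3 differences from Lox P1 had adjusted p values of 0.136 and 0.0670 in limma and did not pass. Like that of Col8a1, they were tested without taking off the median of 0.20 over all tested genes. Less that median the differences from Lox P1 are 1.35 for Hmox1, 0.91 for Igfbp3 and -0.745 for Col8a1.

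**Figure D5:**
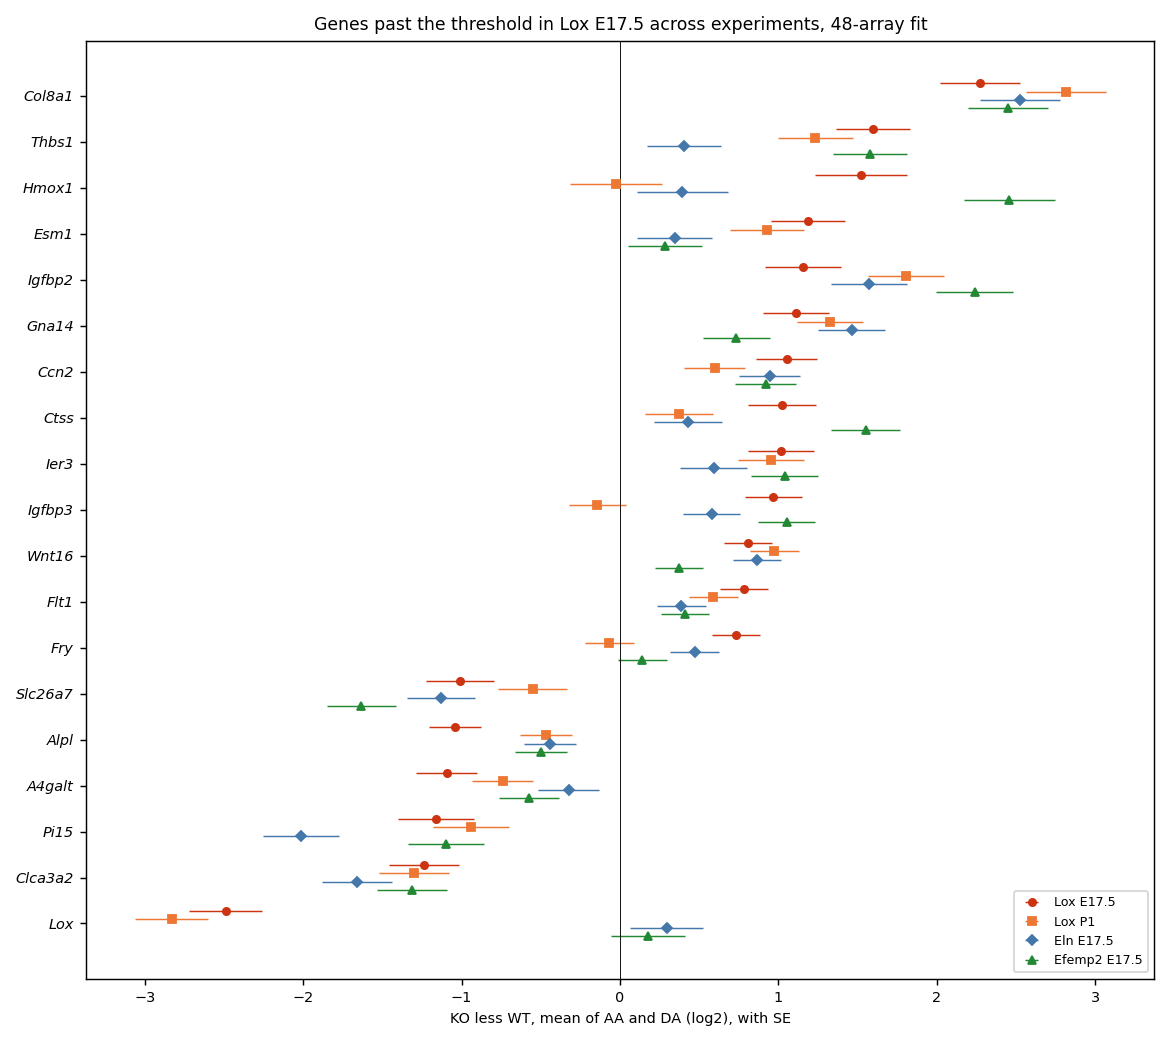
KO less WT (x axis, log2, as fitted) with its SE from the 48-array fit for the 19 genes called in Lox E17.5 (red circles), in Lox P1 (orange squares, not corrected for that stage's median of -0.17), Eln E17.5 (blue diamonds) and Efemp2 E17.5 (green triangles). Col8a1 and Clca3a2 lie on one side of 0 in all 4 experiments, Hmox1 is above 1 in Lox E17.5 and Efemp2 E17.5 and near 0 in Lox P1, and Lox lies far left in both Lox experiments.

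Tested directly, few genes passed for a difference from Lox E17.5, which with 2 arrays per group does not show that the effects were alike. Across genes the Lox E17.5 effect correlated at 0.24 with Lox P1, 0.177 with Eln E17.5 and 0.235 with Efemp2 E17.5, as a description. Against Eln E17.5 the 2 genes that passed (0.0166% of tested genes) were the deleted genes, Eln (6.71 ± 0.44) and Lox (-2.78 ± 0.33). Against Efemp2 E17.5 the 1 that passed (0.0083%) was Lox (-2.67 ± 0.33), and at an unadjusted p under 0.05 there were 396 (3.29%) and 672 genes (5.58%). Against Lox P1, 4 genes passed, all with a higher difference at E17.5 (0.0332%; 12% at an unadjusted p under 0.05), beside a median of 0.20 over all tested genes. Galnt15, a glycosyltransferase gene, was at 3.58 to 4.46 in the 8 E17.5 arrays with 0.01 between the genotypes, and at 7.41 to 8.32 in WT P1 against 5.25 to 6.41 in KO P1 (difference of the effects 1.97, adjusted p = 0.0169). Mustn1, a gene of developing muscle and skeleton (1.27), Carmil1, a regulator of actin capping (1.04), both at adjusted p = 0.0169, and Kcnma1, the pore of the large-conductance calcium-activated potassium channel (1.19, adjusted p = 0.0469), also passed, with E17.5 differences of 0.31, 0.04 and -0.21. These tests are on differences from which the median of 0.20 was not taken off; less it they are 1.77 for Galnt15, 1.07 for Mustn1, 0.84 for Carmil1 and 0.99 for Kcnma1. After cyclic loess normalization, which brings the median to 0.0004, the count was 7, of which 2 were higher and 5 lower at E17.5. Galnt15 (1.75, adjusted p = 0.0490) and Mustn1 (1.12, adjusted p = 0.0249) passed there, Carmil1 (0.81) and Kcnma1 (0.97) did not, and Angptl1 (-1.39) and Sqle (-1.39), the latter of sterol synthesis, passed as lower. The P1 differences of Mustn1, Carmil1 and Kcnma1 were -0.79, -0.83 and -1.22 less the median, against -1.79 for Galnt15. At E17.5 Carmil1 (4.25 to 4.52) and Kcnma1 (3.20 to 4.64) were dim, like Galnt15, beside the filter of 4.14. In WT P1 they stood at 7.87 to 8.13 and 6.57 to 7.54. Differences of dim genes may come out too small, so a lack of effect at E17.5 is not shown for these genes. Mustn1 was brighter, at 6.87 to 7.47 in the E17.5 arrays. The count of 4 was 133 without WT AA replicate 2, 1 without KO AA replicate 1 and 0 without each of the other 6 Lox E17.5 arrays, 112 in a fit of only these 16 arrays and 161 with array background as a covariate.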

How the data were processed

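RNA of 8 Lox E17.5 aorta pools was measured on arrays. Per the labels, pooled tissue was extracted with the RNeasy Plus Mini kit and amplified from little RNA with the NuGEN Ovation Pico system. The authors deposited log2 signals, 1 per probe set, from RMA as run by Affymetrix Expression Console, per the submitters' processing notes. Which arrays were normalized together, software versions and the build are not given in the sources used here. Amplification and RMA summarise and flatten low signals, so fold changes of dim genes may be too small.

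Of 41345 probe sets, 23521 carried 1 gene symbol, 1814 several and 16010 none. The brightest probe set stood for each of 22180 genes, and 12046 with a group mean of at least 4.14, the median of single-symbol probe sets, were tested (11983 matched RefSeq by gene ID). Linear models were fitted with limma 3.58.1 in R 4.3.3, with moderated variances and Benjamini-Hochberg adjustment over the 12046 genes, threshold 0.05. The mean effect had location as a block (5 residual degrees of freedom). AA, DA and their difference came from 4 group means, and comparisons with other experiments from 24 group means over 48 arrays. The steps were tested on simulated data.

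The members and the 35 gene and marker lists (468 genes, 427 on the array, 383 tested) were chosen with earlier results of these data known. Named were Lox, up to 15 genes each way past the threshold in the mean contrast, up to 5 each way in other contrasts, up to 4 called members per list and, where few passed, the 3 of smallest p, without predicted genes and receptor families. Other list members and examples were named after their values were seen. Whether replicate numbers pair the samples is not known, and they were not treated as pairs in the main fits. The means of each KO replicate join AA and DA arrays of the same number as labelled. Deviations of same-numbered arrays correlated at -0.27 to 0.07. Alternatives were other filters, normalizations, variance models, blocks (statmod 1.5.0) and samples, and array weights, a crossed block and the 48-array fit without single arrays were added after seeing the data.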

Additional observations from a re-analysis of the deposited data

Results flagged for a closer look

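The Lox E17.5 effect differed from that of Lox P1, by limma on all 48 arrays, for Galnt15 (1.97, adjusted p = 0.0169), Mustn1 (1.27, adjusted p = 0.0169), Kcnma1 (1.19, adjusted p = 0.0469) and Carmil1 (1.04, adjusted p = 0.0169), before the median of 0.20 over all genes is taken off. It differed from that of Eln E17.5 for Eln (6.71, adjusted p = 5.39e-12) and Lox (-2.78, adjusted p = 6.87e-06), and from that of Efemp2 E17.5 for Lox (-2.67, adjusted p = 3.55e-05). Galnt15, Kcnma1 and Carmil1 were dim at E17.5, where differences may come out too small.

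Among 7066 probe sets without a single gene symbol, which no comparison above uses, 2 passed in limma on the 8 arrays, and 383 had an unadjusted p under 0.05. Probe set 17549062 stood at 4.09 and 4.10 in WT AA, 4.02 and 4.12 in WT DA, 7.38 and 7.52 in KO AA, and 7.15 and 7.71 in KO DA (3.36 ± 0.17, SE, adjusted p = 6.45e-04). Probe set 17549150 stood at 3.67 and 3.99 in WT AA, 3.76 and 4.41 in WT DA, 7.83 and 8.07 in KO AA, and 7.79 and 8.25 in KO DA (4.02 ± 0.21, adjusted p = 6.45e-04). Their differences were larger than that of any named gene, and the KO pools lay close together. The table used gives neither a symbol.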

How the results depend on the processing

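No difference of a gene named by the rule reversed in the contrasts followed. These genes were chosen for large differences or small p, so a reversal was unlikely, and the other tested genes were not followed. Of 35 list medians, 14, none above 0.14 in size, changed sign under at least 1 setting. Those that did so most often were cartilage (7 settings), the lysyl oxidase family (5) and platelet (4). The mean Lox effect (4 genes) gave 7 with a filter 1 log2 unit higher, 8 with trend and robust variances, 19 with all 48 arrays, 11 with AA and DA of one number as a random block and 2 with their average, 0 with 4 group means, 9 with array weights and 1 with array background as a covariate. It gave 1 without both KO arrays numbered 1, 2 without both numbered 2, and 0 to 17 with 1 array left out. With the replicate block it gave 6 (pairing was not shown), and 1 with the block crossed for KO AA. AA (0 genes) gave 4 with all 48 arrays and 0 to 178 with 1 array left out. DA (0) gave 3 with all 48 arrays, 1 with background as a covariate, 1 without both KO arrays numbered 1, 2 with array weights and 0 to 1 with 1 left out. Their difference (0) gave 1 without both KO arrays numbered 2 and 0 to 3 with 1 left out. The comparison with Lox P1 (4) gave 161 with background as a covariate, 7 after cyclic loess (2 higher and 5 lower), 112 in a fit of the 16 arrays, 0 to 133 with 1 left out and 3 with the replicate block. That with Eln E17.5 (2) gave 1 with 16 arrays and 2 to 3 with 1 left out, and that with Efemp2 E17.5 (1) gave 0 with 16 arrays and 1 with any 1 left out. The replicate block changed no other count. Of the values of these named genes over the settings 1080 kept their side of the threshold, 80 moved past it and 78 lost it. Of list medians 829 moved less than the spread and 10 more. The number of arrays, 2 per group, limits precision, and the causes of these changes were not tested.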

Other observations

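The same 2 probe sets without a symbol followed genotype in 2 of the 3 models. Probe set 17549062 lay between 4.02 and 5.18 in all 24 WT arrays and between 4.28 and 5.01 in the 8 Efemp2 KO arrays, against 9.05 to 9.76 in the 8 Eln KO arrays, 9.95 to 10.48 in the 4 Lox KO arrays at P1 and 7.15 to 7.71 in the 4 at E17.5. Probe set 17549150 lay between 3.67 and 5.20 in the WT arrays and 4.27 to 5.18 in Efemp2 KO, against 9.79 to 10.39 in Eln KO, 10.29 to 10.67 in Lox KO at P1 and 7.79 to 8.25 at E17.5. In the 48-array fit over 7066 such probe sets the fitted Lox effect was smaller at E17.5 than at P1, with differences of -2.26 and -2.07 (adjusted p = 0.0020 each, limma). Each experiment may have been normalized on its own, and the part of a different signal scale in these differences was not tested. Both probe sets were higher in KO replicate 2 than in replicate 1 in each location at E17.5, and the Lox signal was lower in replicate 2.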
